A study of Drosophila melanogaster with 4 samples.

Results

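The digestive enzymes of the fly larva are secreted by the midgut, and 4 families of their genes are described here across wildtype larvae and larvae that lack HP1a. The members were chosen by symbol, as the genes whose RefSeq name starts with Jon (the Jonah proteases) or Mal-A (the A maltases), the trypsin genes with a Greek-letter name, and *Amy-p* and *Amy-d*. RefSeq names 37 such genes, and 36 of them, of 13568 genes with values, have FPKM here: 16 Jonah proteases, 10 trypsins, 8 maltases and 2 amylases. *gammaTry* was not analysed here. There were 4 libraries of rRNA-depleted RNA from larvae of the last instar, 2 of wildtype Oregon R and 2 of the HP1a mutant, which carried the allele 04 of Su(var)205 on one chromosome and the allele 05 on the other. All stocks were kept on cornmeal food at 25°C and 70% humidity. The mutant larvae came from a cross of balancer stocks and were picked for lack of GFP, whereas the wildtype larvae came from another stock, so that genotype and stock cannot be told apart. The mutants start life with HP1a from the mother, and the labels give neither the number and sex of the larvae in a sample nor their age within the instar. Whole larvae were used, so that a change in the share of midgut cells and a change in RNA per midgut cell cannot be told apart.

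Jonah proteases and trypsins are serine endopeptidases, made by the enterocytes and released into the gut lumen, where they cut the proteins of the food. Amylase breaks starch into maltose and other short sugars, and the maltases (alpha-glucosidases) of the gut surface cut maltose and sucrose into single sugars. Expression of these genes is known to follow feeding and diet, and amylase is known for its repression by dietary glucose. In the genome the genes lie in clusters that arose by duplication. In the Release 5 coordinates of the files, the 10 trypsin genes fill 20.7 kb of chromosome arm 2R (7224353 to 7245037), the 8 maltase genes fill 24.3 kb of 2R (4337167 to 4361466), and the Jonah genes are spread over 2L, 2R, 3L and 3R.

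Values are FPKM, fragments scaled to transcript length and to the mapped fragments of the library, as deposited. The bounds that Cufflinks gives around each FPKM imply between 7191259 and 7515650 fragments on genes per library. *Su(var)205*, which encodes HP1a, had an FPKM of 125 and 137 in wildtype and of 27.8 and 20.1 in the mutant. Genes were tested with limma on log2(FPKM + 1), with fold changes given ± their standard error (SE), and passed at an adjusted p under 0.01 over all 9447 genes tested. Most genes had a lower FPKM in the mutant, with a median log2 fold change of -0.84 over all genes tested. The salivary glue genes were lower in the mutant by far more, with a summed FPKM of 49634 and 53125 in wildtype against 75.0 and 484 in the mutant. Of the 5 tested, 5 passed as lower, against 34.4% of all genes tested. With the libraries rescaled to a common median, 4 of 5 did, against 10.1%. They are switched on late in the last instar. The part of developmental stage in the values below was not tested.

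Most digestive enzyme genes had a higher FPKM in the mutant, unlike the median gene. Both mutant libraries lay above both wildtype libraries for 30 of the 35 members tested, where 17.3% of all genes tested did so. They lay below for 3, *Amy-p*, *Amy-d* and *Mal-A5* (69.1% of all genes tested). In limma, 15 of the 35 (42.9%) passed as higher in the mutant, against 6.98% of all genes tested, and 1 passed as lower, *Mal-A5*, against 34.4%. The median log2 fold change of the members was 0.96. After all libraries were rescaled to a common median, 17 members passed as higher (12.5% of all genes tested) and none as lower (0, against 10.1%), and the median of the members was 1.88. When either wildtype library (replicate 1 or replicate 2) was left out, limma passed none of the members (0 of 35, although 16 and 18 had an unadjusted p under 0.05), and no gene of the whole table. The member without a test was *Mal-A7*, the least expressed, with an FPKM of 0.462 and 0.601 in wildtype and 1.57 and 0.812 in the mutant.

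**Figure D1:**
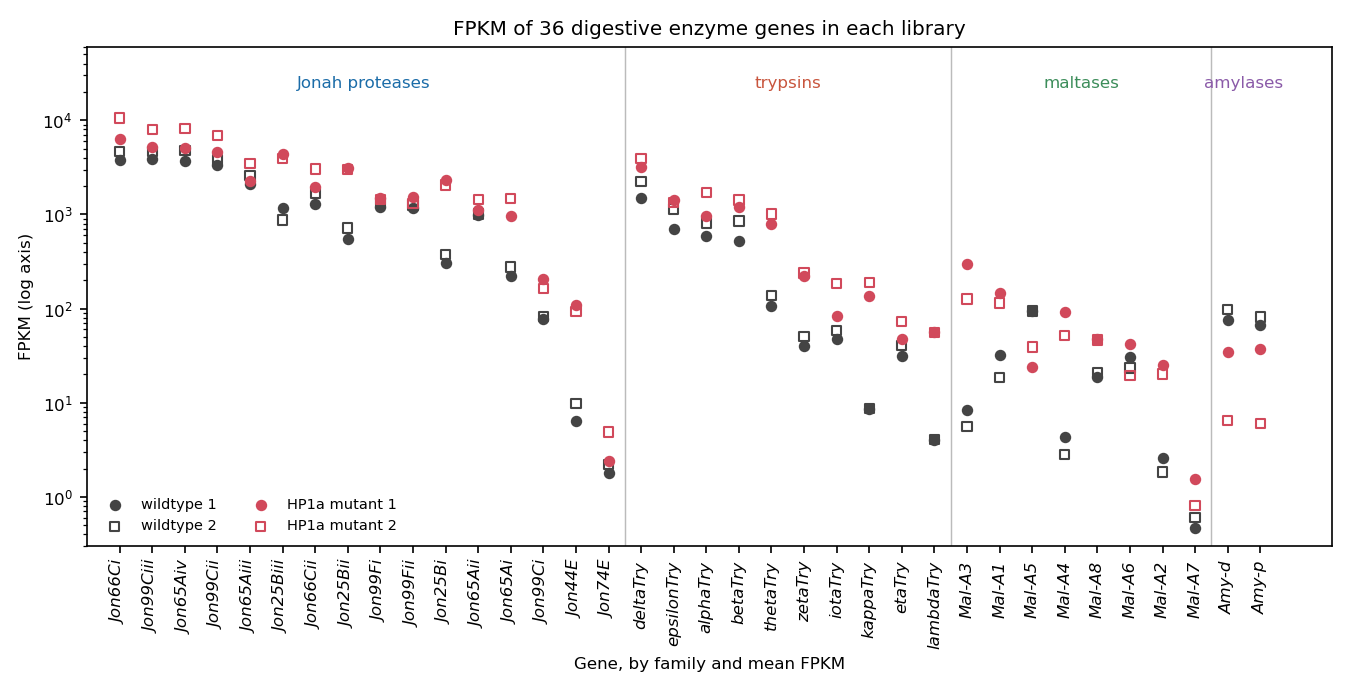
FPKM (log axis) of the 36 digestive enzyme genes, by family and mean FPKM, with 1 point for each library (black for wildtype, red for the HP1a mutant, filled circles for replicate 1 and open squares for replicate 2). The 4 most abundant Jonah genes lie at 3332 or more in every library, while the genes with the widest gap between black and red points, such as *Mal-A3* and *kappaTry*, lie under 10 in wildtype.

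Of all implied fragments, the 36 genes together held 2.05% and 2.51% in wildtype, against 3.90% and 5.14% in the mutant. The Jonah proteases made up most of this, with a summed FPKM of 23832 and 28200 in wildtype and 40638 and 55048 in the mutant. The trypsins came to 3550 and 5344 in wildtype and to 8048 and 10146 in the mutant. The maltases were far less abundant, at 192 and 168 in wildtype and 674 and 418 in the mutant. The amylases, at 142 and 179 in wildtype, came to only 72.0 and 12.6 in the mutant. Mutant libraries were thus above wildtype libraries in the sums of 3 families, and below them in that of the amylases.

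The member with the largest log2 fold change was a maltase gene, *Mal-A3*, although *kappaTry* was ahead of it without HP1a mutant replicate 1 (4.30 against 4.01). *Mal-A3* had an FPKM of 8.46 and 5.60 in wildtype and of 294 and 126 in the mutant, with a log2 fold change of 4.62 ± 0.47 (SE, limma, adjusted p = 0.00319). Its mutant libraries differed by 2.33-fold, yet the lower of them was far above both wildtype libraries. *Mal-A4* had 4.38 and 2.82 in wildtype and 92.1 and 51.5 in the mutant (log2 fold change 3.95 ± 0.36, adjusted p = 0.00276). *Mal-A2* rose from 2.62 and 1.84 to 25.0 and 20.2, and *Mal-A1* from 31.8 and 18.7 to 148 and 115, with log2 fold changes of 2.87 and 2.37. *Mal-A1* did not pass without HP1a mutant replicate 1 or without HP1a mutant replicate 2 (adjusted p = 0.0137 and 0.0117 from limma). These 4 genes are neighbours within 11.2 kb, and Mal-A1, Mal-A2 and Mal-A3 are the genes once named for larval visceral proteins (LvpH, LvpD and LvpL). The wildtype values of *Mal-A2* rest on 39.0 and 28.0 implied fragments and those of *Mal-A4* on 56.0 and 37.0, so that their fold changes are less precise than their sign.

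The 4 maltase genes that follow along the arm did not all share this change. *Mal-A5* was the most abundant maltase in wildtype, at 94.6 and 94.1, and had 24.1 and 39.0 in the mutant, with a log2 fold change of -1.59 ± 0.27 (SE, limma, adjusted p = 0.00892). It is thus the maltase whose libraries were ordered the opposite way from those of its neighbour *Mal-A4*. The fall did not pass with the libraries rescaled, where the log2 fold change was -0.68 (adjusted p = 0.178). Most of its FPKM belonged to 1 of the 2 transcripts listed, which had 89.8 and 91.0 in wildtype and 20.6 and 34.0 in the mutant, while the other stayed between 3.08 and 5.07 in all libraries. *Mal-A6*, whose start lies 77 bases past the end of *Mal-A5*, had 30.7 and 23.3 in wildtype and 41.9 and 19.5 in the mutant, and the genotypes overlapped. *Mal-A8* rose from 19.0 and 21.0 to 47.6 and 46.5 (log2 fold change 1.20, adjusted p = 0.00474), with little spread between replicates.

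In wildtype, *Mal-A5* held the first rank of the maltases in FPKM, and in both mutant libraries *Mal-A3* did. Within a library, the ratio of the FPKM of neighbouring members does not depend on how the library was scaled. The log2 ratio of *Mal-A5* to *Mal-A4* was 4.43 and 5.06 in wildtype and -1.93 and -0.40 in the mutant. This was the largest shift among the 25 pairs of neighbouring members. It is a description of these libraries, since 0.333 is the smallest two-sided p of an exact permutation test here.

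The amylase genes were the other carbohydrases with a lower FPKM. *Amy-p* had 66.5 and 81.2 in wildtype and 37.0 and 6.05 in the mutant, and *Amy-d* had 75.2 and 97.8 in wildtype and 34.9 and 6.53 in the mutant. Neither mutant library reached the wildtype values, but they differed from each other by 6.12-fold and 5.35-fold. The log2 fold changes, -2.19 (standard error 0.85) and -2.40 (standard error 0.79), did not pass in limma (adjusted p = 0.0788 and 0.0524). They passed without HP1a mutant replicate 1, at -3.40 and -3.53 (adjusted p = 0.00416 and 0.00419), where the lone mutant library is taken to vary like the wildtype libraries, and were -0.97 and -1.27 without HP1a mutant replicate 2. The amylase genes are near-identical copies, and their values moved together. Their implied fragments in HP1a mutant replicate 2, 71.5 and 78.5, are not whole, so that some fragments were split, and the share of each copy is uncertain.

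The trypsin cluster fell into genes with large and with small differences. *kappaTry* had an FPKM of 8.54 and 8.64 in wildtype and of 137 and 188 in the mutant, with a log2 fold change of 4.07 ± 0.22 (SE, limma, adjusted p = 0.00211). *lambdaTry*, which ends 5 bases before *kappaTry* begins, had 3.98 and 4.05 in wildtype and 57.1 and 55.9 in the mutant (log2 fold change 3.52 ± 0.15, adjusted p = 0.00211). In each of these genes, the wildtype replicates were nearly equal and both mutant libraries were more than 10-fold above them. The *lambdaTry* values rest on 24.0 and 25.0 implied fragments in wildtype and on 372 and 351 in the mutant.

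*zetaTry* rose from 40.1 and 50.4 to 220 and 239, and *thetaTry* from 106 and 138 to 785 and 1014, with log2 fold changes of 2.32 and 2.87 (adjusted p = 0.00259 for each, from limma). *etaTry* lies between them, 384 bases from the former and 290 bases from the latter, and had 31.1 and 40.7 in wildtype and 47.7 and 72.5 in the mutant. Its mutant libraries were also above its wildtype libraries, but its log2 fold change was 0.71 and did not pass (adjusted p = 0.0842). The log2 ratio of *thetaTry* to *etaTry* was 1.77 in both wildtype libraries and 4.04 and 3.81 in the mutant libraries.

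The other 5 trypsin genes, from *alphaTry* to *iotaTry*, include the abundant ones and had log2 fold changes between 0.63 and 1.22, none of which passed (0 of 5; adjusted p from 0.0386 to 0.123 in limma, with 3 at an unadjusted p under 0.05). *deltaTry* had the highest FPKM of the 10 trypsin members in every library, with an FPKM of 1507 and 2245 in wildtype and of 3154 and 3937 in the mutant. *iotaTry* passed without HP1a mutant replicate 1, at 1.79 (adjusted p = 0.00543 from limma), and was 0.64 without HP1a mutant replicate 2. For each of the 5, both mutant libraries lay above both wildtype libraries, as for 17.3% of all genes tested. The trypsin-like genes *CG30031* and *CG30025*, which lie inside the cluster, had log2 fold changes of 1.08 and 0.89 that did not pass either. The FPKM of *CG30031*, 3597 and 5349 in wildtype and 8269 and 10348 in the mutant, was above that of *deltaTry* in every library. However, the span listed for *CG30031*, 7231852 to 7241878, covers *epsilonTry*, *betaTry* and *CG30025*, and part of *alphaTry*. The FPKM of *CG30031* may thus join more than 1 locus. Whether that of *deltaTry* does so was not tested. Fragments of closely related copies may be shared out among them, and how multiply mapped reads were treated is not stated in the labels.

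**Figure D2:**
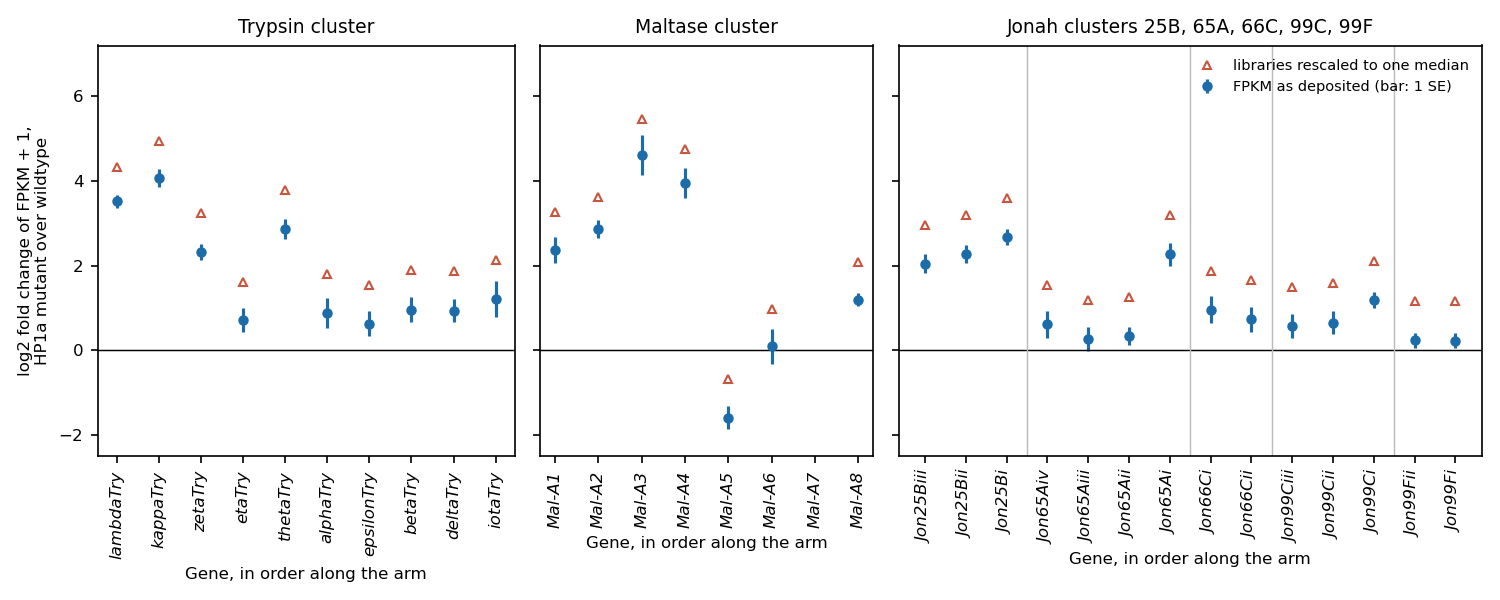
Log2 fold change of FPKM + 1, HP1a mutant over wildtype, for the genes of the trypsin, maltase and Jonah clusters in their order along the arm, with FPKM as deposited (circles, bars of 1 standard error) and with libraries rescaled (triangles), *Mal-A7* having no point. *etaTry* lies at 0.71 between *zetaTry* at 2.32 and *thetaTry* at 2.87, *Mal-A4* at 3.95 is followed by *Mal-A5* at -1.59, and *Jon65Ai* at 2.26 stands above the rest of its cluster.

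The Jonah proteases also differed among themselves. *Jon44E*, a gene apart from the clusters, had an FPKM of 6.34 and 9.80 in wildtype and of 108 and 93.1 in the mutant (log2 fold change 3.51 ± 0.25, limma adjusted p = 0.00231). The 3 genes of the 25B cluster rose together. *Jon25Bi* had 306 and 378 in wildtype and 2304 and 2051 in the mutant, with a log2 fold change of 2.67 ± 0.20 (adjusted p = 0.00243). *Jon25Bii* rose from 546 and 720 to 3088 and 2980 (log2 fold change 2.27), and *Jon25Biii* from 1160 and 875 to 4414 and 3921 (log2 fold change 2.04). Their summed FPKM was 2013 and 1973 in wildtype and 9806 and 8953 in the mutant, and the mutant replicates of each differed by at most 1.13-fold.

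The most abundant Jonah genes had smaller fold changes. *Jon66Ci* had 3820 and 4672 in wildtype and 6358 and 10594 in the mutant, the first rank of all members in both mutant libraries, but its log2 fold change of 0.96 (standard error 0.32) did not pass (adjusted p = 0.0523 from limma). It passed without HP1a mutant replicate 1, at 1.33 (adjusted p = 0.00998), and was 0.59 without HP1a mutant replicate 2. *Jon66Cii*, its neighbour, had 1301 and 1667 in wildtype and 1965 and 3046 in the mutant. *Jon99Ciii* had 3914 and 4691 in wildtype and 5162 and 7959 in the mutant, and *Jon99Cii* had 3332 and 3841 in wildtype and 4605 and 6889 in the mutant. All 4 genes had mutant values above both wildtype values (17.3% of all genes tested did), with the higher of them in HP1a mutant replicate 2.

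*Jon65Aiv* had 3699 and 4789 in wildtype and 5033 and 8199 in the mutant, without passing (adjusted p = 0.154). *Jon65Aiii* was the Jonah gene whose genotypes overlapped, with 2116 and 2600 in wildtype and 2273 and 3474 in the mutant. The genes of the 99F cluster had the smallest differences of the Jonah genes, without overlap, with 1190 and 1326 in wildtype and 1512 and 1436 in the mutant for *Jon99Fi*, and 1156 and 1259 against 1532 and 1310 for *Jon99Fii*. Their log2 fold changes were both 0.23 and did not pass (adjusted p = 0.284 and 0.309), whereas with the libraries rescaled both passed, at 1.15 and 1.16 (adjusted p = 0.00880 and 0.00759).

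Within the 65A cluster, *Jon65Ai* stood apart in the size of its change. It had 224 and 277 in wildtype and 973 and 1479 in the mutant, a log2 fold change of 2.26 (adjusted p = 0.00423 from limma), while *Jon65Aii*, 392 bases away, had 981 and 1011 in wildtype and 1101 and 1447 in the mutant. The log2 ratio of *Jon65Ai* to *Jon65Aii* was -2.13 and -1.87 in wildtype and -0.18 and 0.03 in the mutant. In the 99C cluster, *Jon99Ci* passed with a log2 fold change of 1.19 (adjusted p = 0.00773), from 77.8 and 83.0 to 208 and 164, but did not pass when low values were not filtered (adjusted p = 0.0148). In that setting *Jon65Ai*, *Jon25Biii*, *Mal-A1*, *Mal-A3* and *Mal-A4* did not pass either (adjusted p from 0.01055 to 0.01653 in limma). *Jon74E*, the least expressed Jonah gene, had 1.80 and 2.19 in wildtype and 2.40 and 4.90 in the mutant, on fewer than 30 implied fragments each. Its log2 fold change of 0.58 did not pass (adjusted p = 0.180 in limma).

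Such contrasts were not more common among the pairs of members than among all pairs of neighbouring genes tested. The latter are adjacent among the genes tested and include members. The pairs of members skip other genes that lie between them, such as *CG30025* between *betaTry* and *deltaTry*. The log2 ratio of neighbours did not overlap between genotypes for 19 of the 25 pairs, where the share over all 7854 pairs of neighbouring genes tested was 75.5%. The mean ratio shifted by more than 1 for 9 of the 25 pairs, where the share over all pairs was 51.7%.

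**Figure D3:**
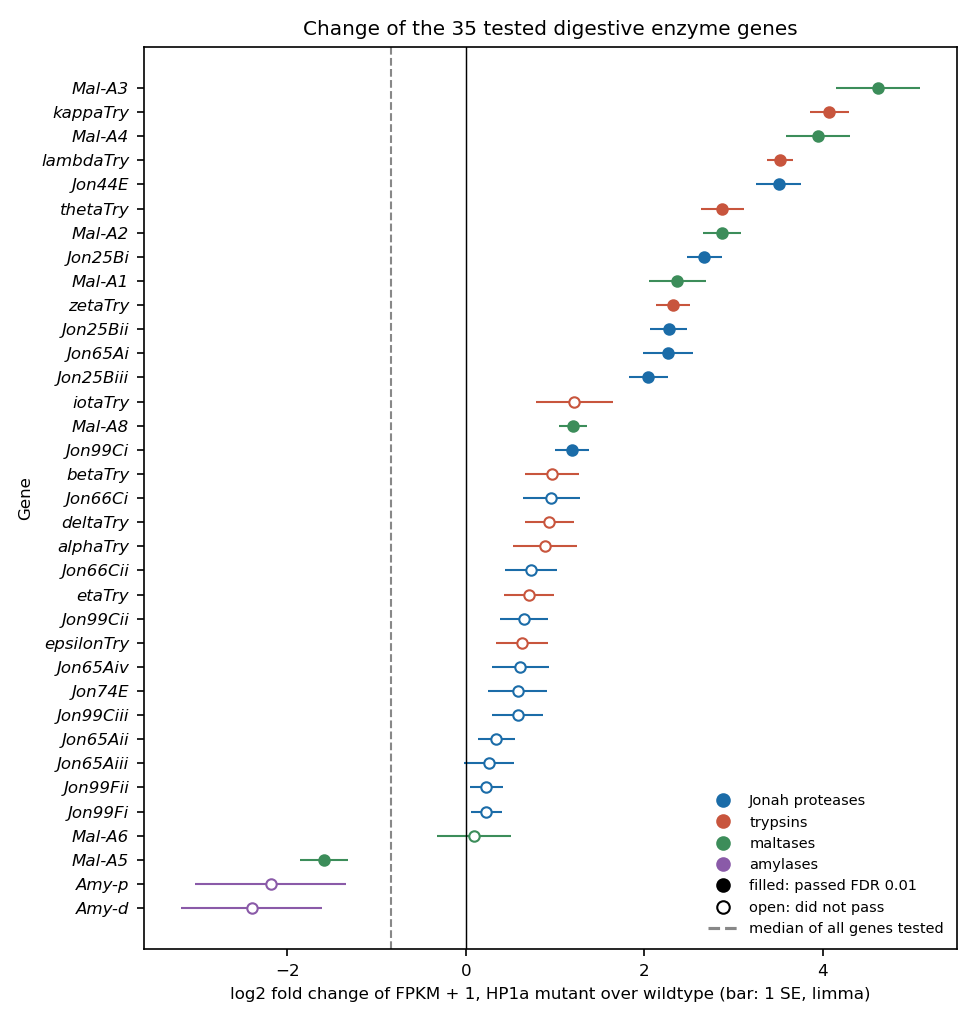
Log2 fold change of FPKM + 1, HP1a mutant over wildtype, of the 35 tested genes, with bars of 1 standard error from limma. Filled points passed an FDR of 0.01 (15 higher and 1 lower), and all but *Amy-p*, *Amy-d* and *Mal-A5* lie to the right of 0 and of the median of all genes tested, -0.84 (dashed).

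The fold changes were larger in genes with a low wildtype level. Of the 13 members with a wildtype mean FPKM under 50, 12 could be tested, and 9 passed as higher (6.98% of all genes tested did), with a median log2 fold change of 2.62. Of the 8 members with a wildtype mean from 50 to 500, which include the 3 with lower values in the mutant, 4 passed as higher and 1 as lower, and the median was 1.20. Of the 15 members with a wildtype mean of 500 or more, 2 passed, *Jon25Bii* and *Jon25Biii*, and the median was 0.65. This is a description, because the wildtype values enter both the grouping and the fold change. The 4 genes *Jon99Ciii*, *Jon66Ci*, *Jon65Aiv* and *Jon99Cii* held the first 4 ranks among the members in all 4 libraries. Behind them, *Jon25Biii* moved from ranks 9 and 12 in wildtype to ranks 5 and 6 in the mutant, past *Jon65Aiii*, *Jon66Cii* and *Jon99Fi*.

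The mutant replicates did not differ alike for all families. For 9 of 16 Jonah genes and 8 of 10 trypsin genes, HP1a mutant replicate 2 had the higher FPKM, with median log2 ratios of FPKM + 1, replicate 2 to replicate 1, of 0.49 and 0.34. For 7 of 8 maltase genes and both amylase genes it had the lower FPKM, with medians of -0.43 and -2.34. *Mal-A5* was the exception among the maltases. Between the wildtype replicates, 15 of 16 Jonah genes and 10 of 10 trypsin genes were higher in replicate 2, and 6 of 8 maltase genes were lower. *Amyrel*, an amylase-related gene outside the rule, also differed between the mutant replicates, with an FPKM of 35.6 and 4.20, against 8.11 and 6.67 in wildtype.

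**Figure D4:**
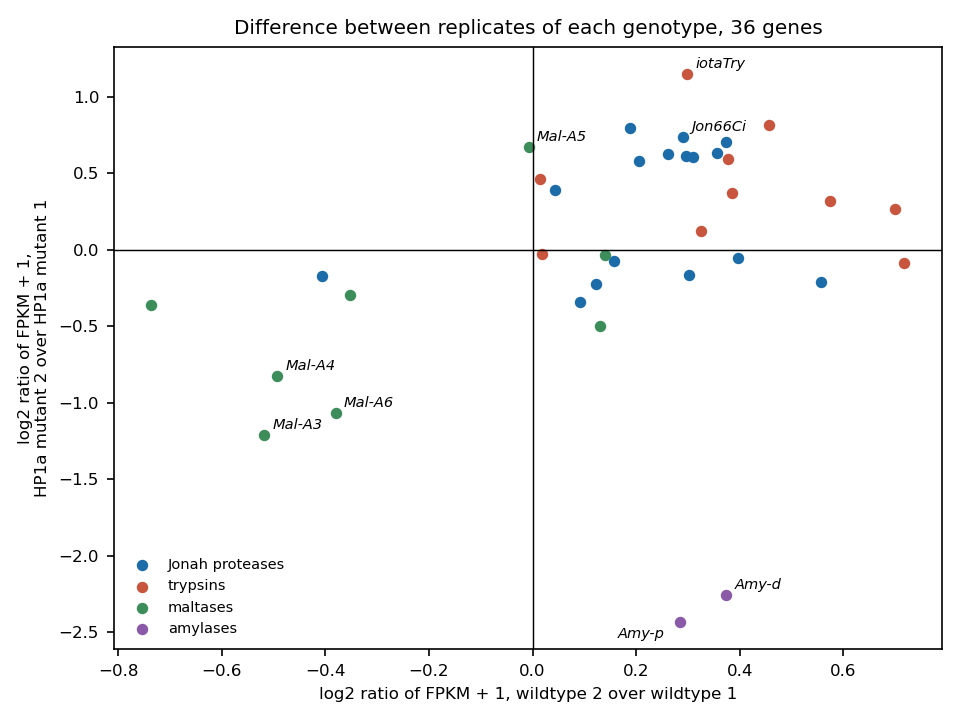
Log2 ratio of FPKM + 1 between replicates for the 36 genes, wildtype on the x axis and HP1a mutant on the y axis, coloured by family. The amylase genes lie lowest, at -2.43 (*Amy-p*) and -2.26 (*Amy-d*) on the y axis, and *Mal-A3*, *Mal-A4* and *Mal-A6* were lower in replicate 2 of either genotype.

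In gene structure, which the choice by symbol did not use, most protease genes and both amylase genes lack introns. In the Ensembl annotation of the BDGP6 assembly, the coding model has a single exon in 10 of 10 trypsin genes, 11 of 16 Jonah genes and both amylase genes, and in none of the 8 maltase genes (0 of 8), against 14.6% of all genes tested with a coding model. The coding length ran from 756 to 840 bases in the trypsins, from 774 to 828 in the Jonah proteases and from 1701 to 1890 in the maltases, and was 1482 in both amylases, with a median of 1203 over the genes tested. The genes that passed include single-exon genes (*kappaTry*, *Jon25Bi*) and genes with introns (*Mal-A3*, *Jon99Ci*).

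Other genes listed as digestive did not move as a block. Whether the genes of this list are limited to the gut was not tested. Of the 21 with values, 18 could be tested, and 3 passed as higher (16.7%, against 6.98% of all genes tested) and 3 as lower (16.7%, against 34.4%). With the libraries rescaled, 5 passed as higher (12.5% of all genes tested) and none as lower (0, against 10.1%). The rises were those of *LysS*, *LysP* and *tobi*. *LysS*, which encodes a lysozyme of the gut, had an FPKM of 688 and 716 in wildtype and of 6574 and 9339 in the mutant (log2 fold change 3.48 ± 0.24, limma adjusted p = 0.00230). *LysP*, another lysozyme gene, rose from 16.8 and 18.9 to 89.7 and 125 (log2 fold change 2.51), and *tobi*, an alpha-glucosidase gene under insulin control, from 9.50 and 7.21 to 23.9 and 26.5 (log2 fold change 1.50). The *tobi* call was lost when HP1a mutant replicate 2 was left out (limma adjusted p = 0.0127).

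The falls were those of *cathD*, *CtsL1* and *Bace*. *cathD*, the gene of the aspartic protease cathepsin D, fell from 970 and 950 to 111 and 219, with a log2 fold change of -2.61 ± 0.37 (SE, limma, adjusted p = 0.00548). *CtsL1*, which encodes a cathepsin L and is also known as *Cp1*, fell from 794 and 725 to 174 and 234 (log2 fold change -1.90), and *Bace*, an aspartic protease gene, from 73.9 and 61.3 to 22.0 and 30.5 (log2 fold change -1.35). With the libraries rescaled, these 3 log2 fold changes were -1.69, -0.98 and -0.44, and none passed (0 of 3, adjusted p from 0.0382 to 0.290). The gut lipase gene *mag* had 629 and 632 in wildtype and 1233 and 1828 in the mutant, and did not pass (adjusted p = 0.0132). *yip7*, a Jonah-like protease gene near the 65A cluster, had 1924 and 2534 in wildtype and 1972 and 4040 in the mutant, with overlap. *LysX*, another lysozyme gene, had mutant values of 0.315 and 10.8, both below its wildtype values, and did not pass (log2 fold change -2.45, adjusted p = 0.115 in limma).

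**Figure D5:**
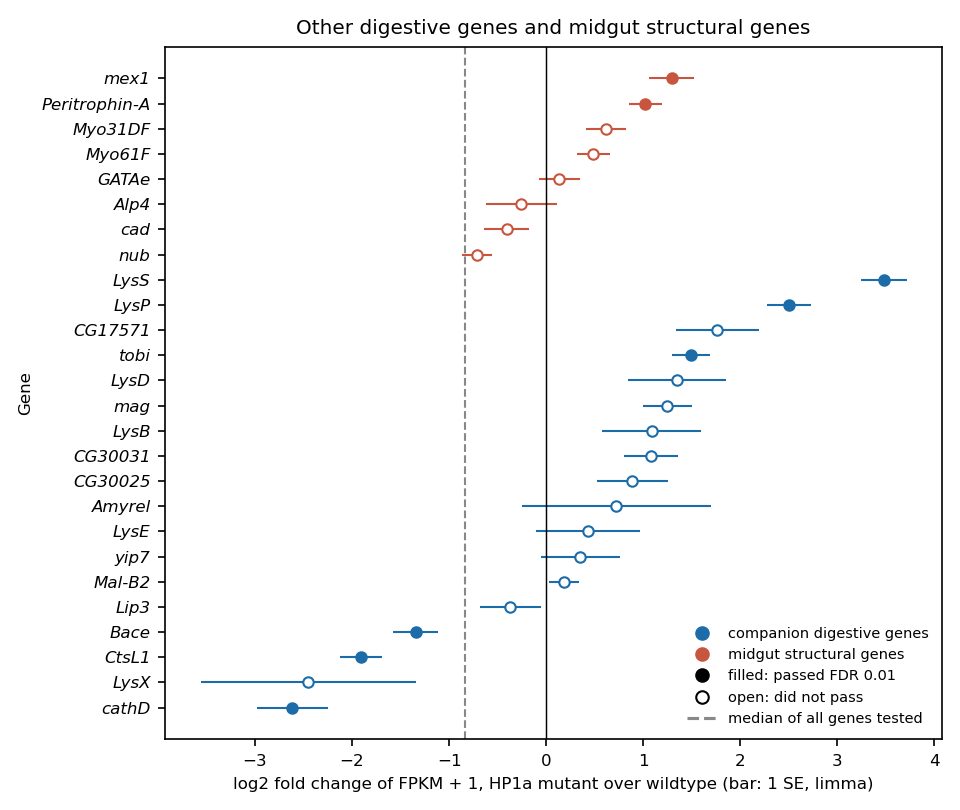
Log2 fold change of FPKM + 1, HP1a mutant over wildtype, of 18 other genes listed as digestive (blue) and 8 genes listed as midgut markers (red), with bars of 1 standard error from limma and filled points for an FDR of 0.01. *LysS*, *LysP* and *tobi* passed on the right and *Bace*, *CtsL1* and *cathD* on the left, and among the genes listed as midgut markers *mex1* and *Peritrophin-A* passed, both on the right.

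None of 8 genes listed as midgut markers, among them the transcription factor genes *GATAe* and *nub*, was at 0 in either genotype. Whether these genes are limited to the midgut was not tested. Their summed FPKM was 370 and 313 in wildtype and 564 and 661 in the mutant, with *mex1* as the largest contributor. Without *mex1*, the other 7 came to 180.0 and 173 in wildtype and 195 and 225 in the mutant. Of these sums, *Alp4* alone made up 87.9 and 76.2 in wildtype and 48.6 and 96.3 in the mutant. Of the 8, 2 passed as higher, *mex1* (a gene expressed in the midgut epithelium, log2 fold change 1.29) and *Peritrophin-A* (a chitin-binding protein, log2 fold change 1.02), and none as lower (0 of 8 in limma, where 5 of the 8 had an unadjusted p under 0.05), against 6.98% higher and 34.4% lower of all genes tested. With the libraries rescaled, *Myo31DF* and *Myo61F* passed as well, so that 4 of 8 were higher, against 12.5%. The brush border myosin genes *Myo31DF* and *Myo61F* had mutant values above both wildtype values without passing (log2 fold changes 0.61 and 0.49), and *nub*, a transcription factor of enterocytes, had lower values without passing (-0.71). The part of the amount of midgut tissue in the change of the digestive genes was not tested. Markers of other tissues moved as well. Of the muscle genes, 3 of 3 tested passed as higher (6.98% of all genes tested did). The summed FPKM of all 4 was 1535 and 1753 in wildtype and 8919 and 7777 in the mutant. That of 6 fat body genes was 24247 and 22156 against 30348 and 45528, and that of 4 neuronal genes 32.4 and 33.0 against 12.4 and 13.2. Of the fat body genes, 3 of 6 passed as higher (against 6.98%) and 1 as lower (against 34.4%). The latter, *Fbp1*, fell from 4333 and 4127 to 32.5 and 19.0, and *Lsp2* was lower without passing (log2 fold change -1.29). Of the neuronal genes, 2 of 2 tested passed as lower, against 34.4% of all genes tested, and none with the libraries rescaled (0 of 2, adjusted p = 0.0415 and 0.372 in limma). Of 3 enteroendocrine genes tested none passed (0 in limma, and 0 of the 3 had an unadjusted p under 0.05). Of 2 middle midgut genes tested 1 passed as higher (*Vha100-4*, log2 fold change 1.03), against 6.98% of all genes tested. The other, *dve*, was lower without passing (log2 fold change -1.01, adjusted p = 0.0107 in limma). Of 2 Malpighian tubule genes tested 1 passed as higher (*Uro*, against 6.98%) and 1 as lower (*Best2*, against 34.4%). *Best2* did not pass with the libraries rescaled (adjusted p = 0.212 in limma). The part of these tissues in the result was not tested.

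Of 8 regulators known to act on digestive genes or on the midgut, 7 could be tested. Of these 1 passed as lower (14.3%, against 34.4% of all genes tested) and none as higher (0, against 6.98%). The 1 that passed was *srp*, a GATA factor that specifies the endoderm and the fat body. It fell from 12.5 and 13.6 to 4.97 and 3.97 (log2 fold change -1.37, adjusted p = 0.00471 from limma), but did not pass with the libraries rescaled (-0.55, adjusted p = 0.0406). *GATAe*, the GATA factor of the midgut, had 2.43 and 3.39 in wildtype and 3.29 and 3.24 in the mutant. *daw*, an Activin-like ligand known in the fly to link dietary sugar to repression of digestive enzyme genes, had 34.7 and 34.7 in wildtype and 8.51 and 19.8 in the mutant, and did not pass (adjusted p = 0.0427). *babo*, its receptor, had 8.79 and 8.62 in wildtype and 3.73 and 2.49 in the mutant and was not tested, because a Cufflinks estimate was not OK. *Smox*, its Smad, had lower values in both mutant libraries and a log2 fold change of -0.70 that did not pass (adjusted p = 0.0417). The sugar sensor gene *Mondo* and its partner *bigmax* had log2 fold changes of 0.43 and -0.45, and *sug*, a target of theirs, one of -0.38. None of the 3 passed (0 of 3; adjusted p from 0.0915 to 0.466 in limma, with none at an unadjusted p under 0.05). With the libraries rescaled, the signs of *Smox*, *bigmax* and *sug* turned (0.17, 0.45 and 0.40). In that setting *Mondo* passed as higher (1.31), 1 of the 7 tested, against 12.5% of all genes tested.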

How the data were processed

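Per the labels, total RNA was isolated with Trizol and rRNA-depleted cDNA was sequenced. The submitters' processing notes name TopHat and Cufflinks. Their versions, the treatment of multiply mapped reads and the use of strand are not stated. The deposited files hold 22608 RefSeq transcripts each, with the FPKM computed by the authors with Cufflinks, its confidence bounds and status, on Release 5 scaffolds. FPKM were summed per gene over transcripts, and 1220 transcripts that match no gene of the RefSeq table were left out. Fragments were implied from the bounds, not read from a count table.

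Differences were tested with limma 3.58.1 (R 4.3.3), two-sided, on log2(FPKM + 1) with a variance trend and Benjamini-Hochberg adjustment, for genes with a mean above 1.4 and status OK in all 4 libraries, at an FDR of 0.01. Fold changes on this scale understate those of low genes. With 2 libraries per genotype, p-values measure only the spread between these samples. Members and lists were chosen with earlier results of these data known. Per-library values were given for the 12 members with the highest mean FPKM, the 5 with the largest and the 5 with the smallest log2 fold change, and any whose replicates differed over 4-fold. Other members, and companion genes that did not pass, were chosen after their values were seen. *gammaTry* and *LysC* were not analysed here, and 2 further companion names are older symbols of member genes. Alternatives were another scaling (libraries set to the same median, or quantile normalization), pseudocounts of 0.1 and 5, other filters, no variance trend, a replicate block and leaving out each library. The test was tried on simulated data, whose spread was changed after a first run recovered too few genes. This trial is therefore no evidence of power.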

Additional observations from a re-analysis of the deposited data

How the results depend on the processing

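The 15 rises were 9 with no filter on low values, where more genes were tested, and between 0 and 16 with 1 library left out. The count of 0 came without wildtype replicate 1 or without wildtype replicate 2, where limma passed no gene at all (0 of 9447, with 4700 and 4601 at an unadjusted p under 0.05). The cause was not tested. With no filter on low values, 313 of all 12561 genes tested passed as higher and 1631 as lower. In the main setting these were 659 and 3249 of 9447. The 1 fall, *Mal-A5*, became 0 with libraries rescaled to the same median, with quantile normalization, with a pseudocount of 0.1, with no filter on low values and with a mean FPKM above 5, and the count ranged from 0 to 3 with 1 library left out. The 3 came without HP1a mutant replicate 1 and include *Amy-p* and *Amy-d*. The median log2 fold change of the members, 0.96, moved to 1.88 with rescaling, and ranged from 0.66 to 1.22 with 1 library left out. The 3 companion falls became 0 with rescaling and with no filter on low values, and ranged from 0 to 4 with 1 library left out. The 3 companion rises became 5 with rescaling, and ranged from 0 to 5 with 1 library left out. The sign turned for *Mal-A6* (-0.10 without wildtype replicate 2 and -0.44 without HP1a mutant replicate 1, with a range up to 0.63) and for *Jon65Aiii* (-0.045 without HP1a mutant replicate 2, with a range up to 0.57). Over all genes tested, samples with the same replicate number did not deviate together (correlation 0.0281 across genes, which are not independent replicates). Among the members, most trypsin genes were higher and most maltase genes lower in replicate 2 of either genotype, while the amylase genes went opposite ways. With a replicate block, 28 members had an unadjusted p under 0.05 in limma, against 21 without it. Of all genes tested, 6441 did, against 6723. With the replicate block, 13 members passed as higher, without *Jon99Ci* and *Mal-A8* (adjusted p = 0.0146 and 0.0121 in limma), and 1 as lower, and 2913 genes passed in place of 3908. Depth limits *Mal-A7*, on 6 to 22 implied fragments per library.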
